A study of Homo sapiens with 3 samples.

Results

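Cyclins and cyclin-dependent kinases (CDKs) were described here through 10 genes: the D-type cyclins CCND1 and CCND3 with their kinase CDK4, the E-type cyclins CCNE1 and CCNE2 with CDK2, the A-type cyclin CCNA2, and the B-type cyclins CCNB1 and CCNB2 with CDK1. The genes were taken by name, with earlier results of these data known, and all 10 were found among the 48162 Ensembl genes of each file. All 10 also lay above the minimum of a mean of 1 FPKM over the libraries, which 12649 named genes reached. FPKM scales a gene's fragments by its transcript length and by the library's total, so levels of different genes can be set side by side on it.

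The 3 libraries came from MDA-MB-231, an established human triple-negative breast cancer line grown in DMEM with serum, and each group holds 1 library. The groups, read from the titles Co, sF_3 and sG_sF_3 with the design text, are a control, a FoxO3 depletion and a joint depletion of Geminin and FoxO3, called co-depletion here. All were infected with lentivirus for 24 hours and harvested 72 hours after the medium was changed, so the control carries infection too. The sources name neither its vector nor the depleting sequences, nor what the 3 in the titles stands for. Because each group is a single library, no difference could be set against the spread between replicates. The text gives no p-value for that reason, and its intervals cover counting error only.

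A cyclin activates its CDK by binding it, and different pairs act at different steps of the cell cycle. D-type cyclins with CDK4 or CDK6 phosphorylate the retinoblastoma protein in G1, cyclin E with CDK2 carries cells into S phase, cyclin A acts in S and G2, and cyclin B with CDK1 drives mitosis. FoxO factors are known for restraining proliferation, in part through the inhibitor p27 (CDKN1B) and through lower D-type cyclin expression. Geminin, the product of GMNN, holds the licensing factor CDT1 in check until mitosis, when it is degraded as B-type cyclins are.

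FOXO3 stood at 12.2, 2.79 and 2.94 FPKM in the control, the FoxO3 depletion and the co-depletion, the order kept for all triples of values here. GMNN stood at 112.3, 112.2 and 37.0, so both were low where the labels say they were depleted. The values rest on inferred totals of 10760613 to 14507410 reads a library. Markers of the line were high, with VIM, CD44, CAV1 and AXL between 432 and 935 FPKM. ESR1 and PGR were at or below 0.12 FPKM in every library, while ERBB2 was at 38.0 to 46.8. EPCAM was at 13.7, 9.80 and 8.95, with ratios to the control of 0.713 (0.566 to 0.893) and 0.651 (0.519 to 0.814). CDH1 was at 0.418, 1.02 and 0.584 FPKM, and KRT5 and KRT14 were at or below 0.41. Among leukocyte markers, CD3E was listed at 0 throughout and PTPRC was at or below 0.19 FPKM, while CD14 was at 6.76, 8.09 and 8.59 and LYZ at 1.5, 0.506 and 1.24. Of 4 fibroblast markers, COL1A1 and PDGFRB were higher in both depleted libraries, with summed FPKM of the 4 at 19.8, 40.4 and 38.8, while COL3A1 and DCN stayed at or below 0.16. Among endothelial markers, KDR was at 5.44, 6.97 and 5.75 FPKM, VWF and CDH5 were at or below 0.26, and PECAM1 was not matched by name. The part of all these markers in the results below was not tested.

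CCND1 was the most abundant of the 10 genes in all 3 libraries, and CCND3, CDK1 and CCNE2 were the ones that differed by about 1.5-fold or more somewhere. CCND3 was 1.58-fold and 1.63-fold higher in the FoxO3 depletion and the co-depletion. CDK1 was at 47.7% and 55.6% of the control and CCNE2 at 55.2% and 65.6%. The other 7 genes stayed within 1.5-fold of the control in both depleted libraries. Of all analysed genes, 20.7% passed 1.5-fold after FoxO3 depletion and 16.3% after co-depletion. The transcripts of CDK1 and CCNE2 are the poorest in GC of the 10, and transcripts poor in GC were lower in both depleted libraries throughout the transcriptome, as described below.

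**Figure D1:**
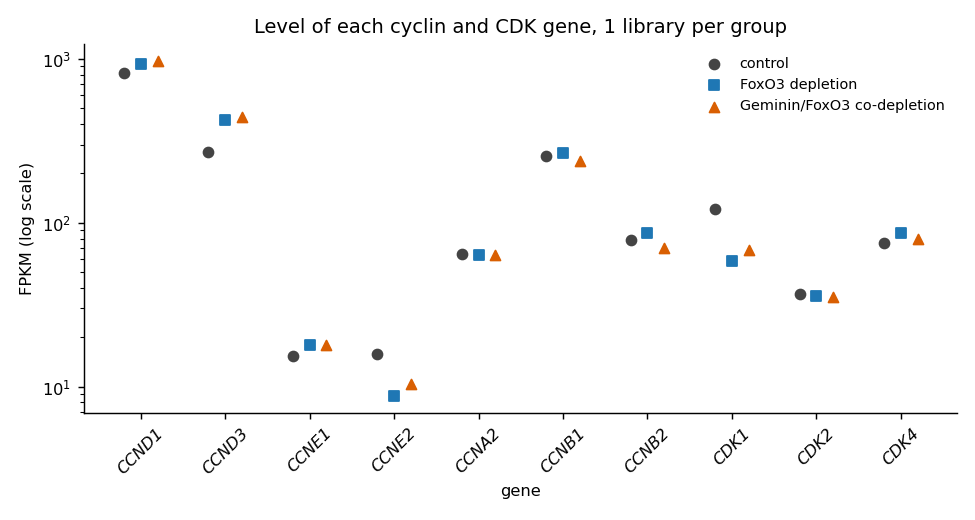
FPKM of the 10 genes (log axis), with 1 point per library: circles for the control, squares for the FoxO3 depletion and triangles for the co-depletion. CCND3 is higher and CDK1 and CCNE2 are lower in both depleted libraries than in the control, and the 3 points of CCNA2 and of CDK2 nearly coincide.

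The order of levels in the control ran from CCND1 through CCND3, CCNB1, CDK1, CCNB2, CDK4, CCNA2, CDK2 and CCNE2 to CCNE1. Counting intervals of neighbours overlapped there for CCND3 and CCNB1, for CCNB2 and CDK4, and for CCNE2 and CCNE1. CDK1 went from rank 4 in the control to rank 7 in the FoxO3 depletion and rank 6 in the co-depletion. Its counting interval overlapped that of CCNA2 in both depleted libraries and that of CCNB2 in the co-depletion. CCND3 stood apart from CCNB1 in both depleted libraries, and CCNE1 stood above CCNE2. Levels of different genes depend on the length used. The length behind the FPKM of CCND1 was 1209 bases, the mean of its 6 GENCODE transcripts, while the longest is 4307 bases. Per longest transcript CCND1 was still first, at 229 in the control against 125 for CCNB1 and 118 for CCND3, and CCNA2 ranked 5 rather than 7. CDK1 then ranked 4 in the control and 5 in each depleted library. Ratios between libraries do not depend on this length.

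CCND1 encodes cyclin D1, which links growth factor signals to CDK4 and CDK6. Its FPKM was 816 in the control and higher where genes were depleted, at 930.1 for FoxO3 alone and 974 for both. The ratios to the control were 1.14 (95% counting interval 1.11 to 1.17) and 1.19 (1.17 to 1.22), which is within 1.5-fold. Its exons overlap those of LTO1 on the opposite strand, at 28.9, 32.6 and 38.2 FPKM, and no source here tells whether the counts used strand.

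CCND3, the D-type cyclin best known from lymphoid cells, stood at 269, 425 and 439 FPKM over the libraries. Both depleted libraries were well above the control and close to each other. The 95% counting intervals of its ratios to the control were 1.52 to 1.65 and 1.57 to 1.70, and the ratio between the depleted libraries was 1.03 (0.993 to 1.07). As CCND1 moved less, the FPKM of CCND1 relative to CCND3 was 3.03 in the control against 2.19 and 2.22 in the depleted libraries. Its pseudogenes CCND3P1 and CCND3P2 were at or below 0.13 FPKM.

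CDK4, their shared kinase, stood at 74.9, 86.0 and 79.7 FPKM. The FoxO3 depletion was above the control by a ratio of 1.15 (1.04 to 1.27), and the co-depletion could not be told from it by counting, at 1.06 (0.966 to 1.17). CDK4 shares exonic sequence on the opposite strand with TSPAN31, which was at 11.2, 7.61 and 7.25 FPKM. The alternative kinase of the D-type cyclins, CDK6, went the other way. Its FPKM was 47.5, 22.8 and 28.1, with ratios to the control of 0.481 (0.441 to 0.524) and 0.591 (0.548 to 0.638).

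CCNE1 and CCNE2 encode the E-type cyclins, which E2F factors induce at the end of G1. CCNE1 stood at 15.5, 17.9 and 18.0 FPKM, and both of its counting intervals against the control included 1, at 0.976 to 1.38 and 0.988 to 1.38. CCNE2 stood at 15.9, 8.76 and 10.4 FPKM. It was lower in both depleted libraries, with ratios of 0.552 (0.444 to 0.682) and 0.656 (0.540 to 0.794). As deposited, the pair was level in the control, with CCNE1 at 0.974 of CCNE2, and this ratio was 2.05 and 1.73 in the depleted libraries. The 2 genes lay closer after the GC adjustment described below. Log2 ratios to the control were then 0.11 and 0.15 for CCNE1 and -0.27 and -0.16 for CCNE2. CCNE2 has fewer reads than CCNE1 in the depleted libraries, 124 and 168 against 252 and 289, which sets the width of its intervals. Its exons overlap INTS8 on the opposite strand, which was lower too, at 23.2, 12.2 and 14.7 FPKM, and if the counts did not use strand, reads of the 2 genes cannot be told apart where they overlap.

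CDK2, the kinase of cyclins E and A, stood at 36.8, 35.9 and 35.4 FPKM. CCNA2, the cyclin A of dividing somatic cells, stood at 64.0, 63.3 and 63.7. As deposited, these 2 genes had the smallest spread of the 10, with the highest library 1.04 and 1.01 times the lowest. Their counting intervals against the control spanned 0.870 to 1.10 for CDK2 and 0.932 to 1.05 for CCNA2 after FoxO3 depletion. Their log2 ratios in that comparison, -0.03 and -0.02, were 0.04 and 0.06 when libraries were scaled by the median ratio of genes. After the GC adjustment described below they were -0.14 and 0.33, so the direction of each depends on the scaling. The exons of CCNA2 overlap EXOSC9 on the opposite strand, at 56.1, 54.7 and 52.8 FPKM. If the counts did not use strand, reads of CCNA2 and EXOSC9 cannot be told apart where they overlap.

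CCNB1 and CCNB2 encode the B-type cyclins, which accumulate in G2 and are destroyed at anaphase. CCNB1 stood at 255, 268 and 239 FPKM, and CCNB2 at 78.6, 86.6 and 70.6. For both the FoxO3 depletion was the highest library and the co-depletion the lowest. Against the control the ratios after FoxO3 depletion were 1.05 (0.983 to 1.12) for CCNB1 and 1.10 (1.01 to 1.20) for CCNB2. After co-depletion they were 0.940 (0.879 to 1.01) and 0.898 (0.820 to 0.984). The intervals of CCNB1 rest on the smallest reads that fit, and 2 times as many would match a length of 1064 bases, near its mean transcript length. They are then wider than needed, so whether the ratios of CCNB1 differ from 1 by counting is not settled by them.

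CDK1, the kinase that B-type cyclins activate for mitosis, stood at 122.1, 58.2 and 67.8 FPKM. Both depleted libraries were far below the control, at ratios of 0.477 (0.440 to 0.516) and 0.556 (0.517 to 0.597). The B-type cyclins did not share this difference, so the FPKM of CCNB1 relative to CDK1 was 2.09 in the control but 4.60 and 3.53 in the depleted libraries. For CCNA2 relative to CDK1 the values were 0.524, 1.09 and 0.939. These are deposited values, and the genes lay closer after the GC adjustment described below. Log2 ratios to the control were then -0.29 and -0.29 for CDK1, 0.27 and 0.10 for CCNB1 and 0.33 and 0.28 for CCNA2.

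**Figure D2:**
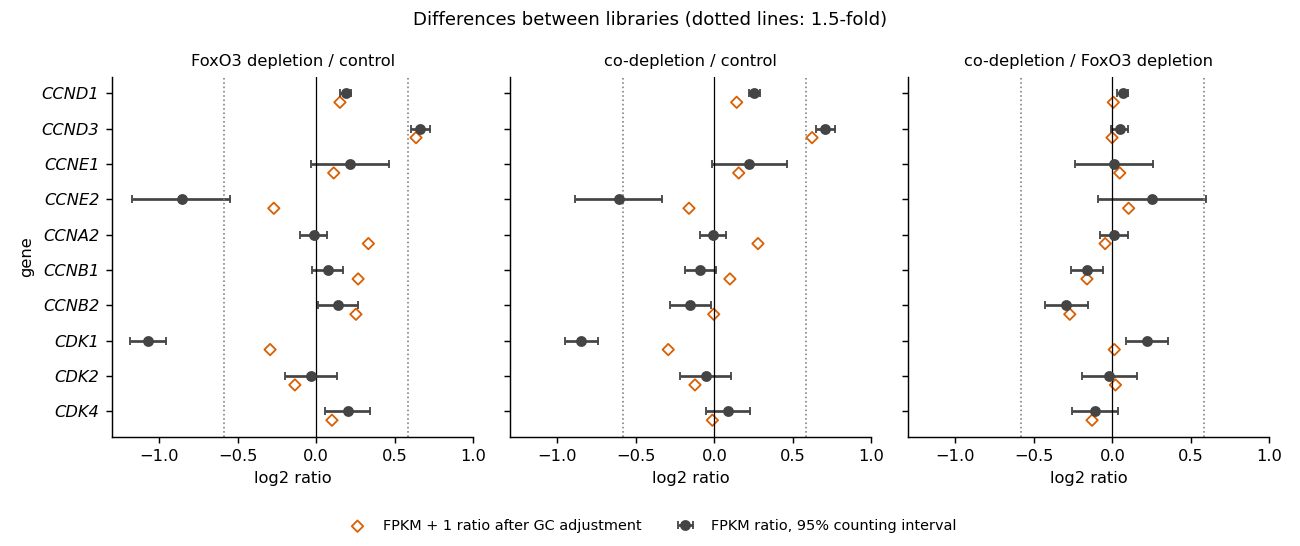
Log2 ratios of the 10 genes in the 3 comparisons of libraries. Filled circles with bars are FPKM ratios with 95% counting intervals, open diamonds are log2 ratios of FPKM + 1 after adjustment for GC content, and dotted lines mark 1.5-fold. CDK1 and CCNE2 move from beyond or near the lower line to inside it on adjustment, while CCND3 stays beyond the upper line in both comparisons with the control.

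The promoters of B-type cyclins and CDK1 are known for a CCAAT box upstream of a cell cycle homology region (CHR), through which the DREAM and MuvB complexes act. The sites are shown here because CDK1 parted from CCNB1 and CCNB2 in the deposited values. RefSeq sequence on GRCh38.p14 was searched over the 250 bases before each start site, on both strands, for the CHR form TTTGAA with its variant TTTAAA as well as the related TTCGAA plus, as the other strand of the first form, TTCAAA, for CCAAT, for the forkhead motif TGTTTAC and for the E2F core GGCGGGA. Windows were searched for 7 of the 10 genes, and CCND1, CDK2 and CCNE2 were not used here. Each site is printed 5′ to 3′ on the strand of its gene, with the motif in capitals.
CCNB1 CHR, chr5:69167109-69167136 (+): gcagtgcggggTTTAAAtctgaggctag
CCNB1 CCAAT box, chr5:69167084-69167110 (+): ccacgaacaggCCAATaaggagggagc
CCNB2 CHR, chr15:59105106-59105133 (+): gcgacgcggtaTTTGAAtcctggaacaa
CCNB2 CCAAT box, chr15:59105081-59105107 (+): cgcagggccgcCCAATggggcgcaagc
CDK1 CHR, chr10:60778454-60778477 (+): agcgcggtgagTTTGAAactgctc
CDK1 CCAAT box, chr10:60778421-60778447 (+): cgggctacccgATTGGtgaatccgggg
CDK1 forkhead motif, chr10:60778112-60778140 (+): ggaatctcgatGTAAACAcaatatcactt

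The CHR matches printed are those nearest to a start site, 30 to 25 bases before it in CCNB1, 29 to 24 in CCNB2 and 13 to 8 before the downstream of 2 CDK1 start sites. CCNB2 held another CHR match 193 to 188 bases before its start. CDK1 held 3 more, at 69 to 64 bases before the downstream start and at 161 to 156 and 131 to 126 before the upstream one. The printed CCAAT matches, likewise the nearest to the start, lay at 55 to 51, 54 to 50 and 46 to 42 bases, and in CDK1 the match is on the reverse strand. Printed and unprinted together, CCNB1 held 2 CCAAT matches, CCNB2 held 4 and CDK1 held 3 over its 2 windows. The stretches printed for CHR and CCAAT overlap annotated GENCODE exons, and that of the forkhead motif does not. The printed CHR is TTTAAA in CCNB1 and TTTGAA in CCNB2 and CDK1. CDK1 was at 47.7% and 55.6% of the control as deposited and CCNB1 and CCNB2 were within 1.5-fold of it, as CDK1 was too after the GC adjustment described below. A CHR form was held by 22.8% of all 35116 promoter windows of the same length and a CCAAT box by 32.0%, so neither match is rare. The forkhead motif was found in 1 gene, CDK1, on the reverse strand 208 to 202 bases before its upstream start site, and 2.98% of all windows hold it. The E2F core, held by 13.5% of all windows, matched in CCNE1 and CCNA2. A CHR form also matched in CCNE1 and a CCAAT box in CCNA2 and in 2 of 3 windows of CCND3, while CDK4 held none of the motifs. These are matches of letters and not shown to be sites.

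By size, with a ratio of FPKM + 1 of at least 1.5-fold, 1 of the 10 genes was higher after FoxO3 depletion (CCND3) and 2 were lower (CDK1 and CCNE2). Of all 12649 analysed genes 4.0% were higher and 16.7% lower in that comparison, 20.7% together, and 3 of 10 is near that share. The median log2 ratio of the 10 genes was 0.11, against -0.07 for all genes. After co-depletion 1 of 10 was higher (CCND3) and 1 lower (CDK1), where 4.02% and 12.3% of all genes were, 16.3% together, with medians of -0.03 and -0.06. CCNE2 missed the rule narrowly in the co-depletion, at a log2 ratio of -0.56, and was counted as lower with a pseudocount of 0.1 or 0.5 in place of 1.

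The 2 lower genes were the poorest in GC of the 10, while CCND3 was not the richest. Transcripts of CDK1 have a mean GC content of 37.0% and those of CCNE2 of 39.9%, which places both in the poorest of 10 equal bins of the analysed genes. In that bin the median log2 ratio was -0.64 after FoxO3 depletion and -0.48 after co-depletion, and 53.75% and 39.4% of genes were lower by 1.5-fold. CCND1 and CCND3, at 61.9% and 59.5%, lie in the 2 richest bins, where the medians were 0.04 and 0.05 after FoxO3 depletion. When the median of genes of like GC content was subtracted, the log2 ratio of CDK1 went from -1.06 to -0.29 in the first comparison and from -0.84 to -0.29 in the second. That of CCNE2 went from -0.79 to -0.27 and from -0.56 to -0.16. That of CCND3 went from 0.66 to 0.63 and from 0.70 to 0.62. After adjustment CCND3 was the 1 gene of the 10 past 1.5-fold in each comparison. Of all genes 5.84% and 4.62% were then higher and 9.38% and 6.15% lower, 15.2% and 10.8% together.

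Adjustment gave higher log2 ratios for CCNA2, CCNB1 and CCNB2, which lie in the second, the third and the fourth poorest bins of GC content. CCNA2, at 42.1% GC, went from -0.02 to 0.33 against the control with FoxO3 depleted and from -0.01 to 0.28 with both depleted. CCNB1, at 44.6%, went from 0.07 to 0.27 and from -0.09 to 0.10, and CCNB2, at 45.3%, from 0.14 to 0.25 and from -0.15 to -0.00. CCNE1, at 51.4%, went down, from 0.20 to 0.11 and from 0.21 to 0.15.

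**Figure D3:**
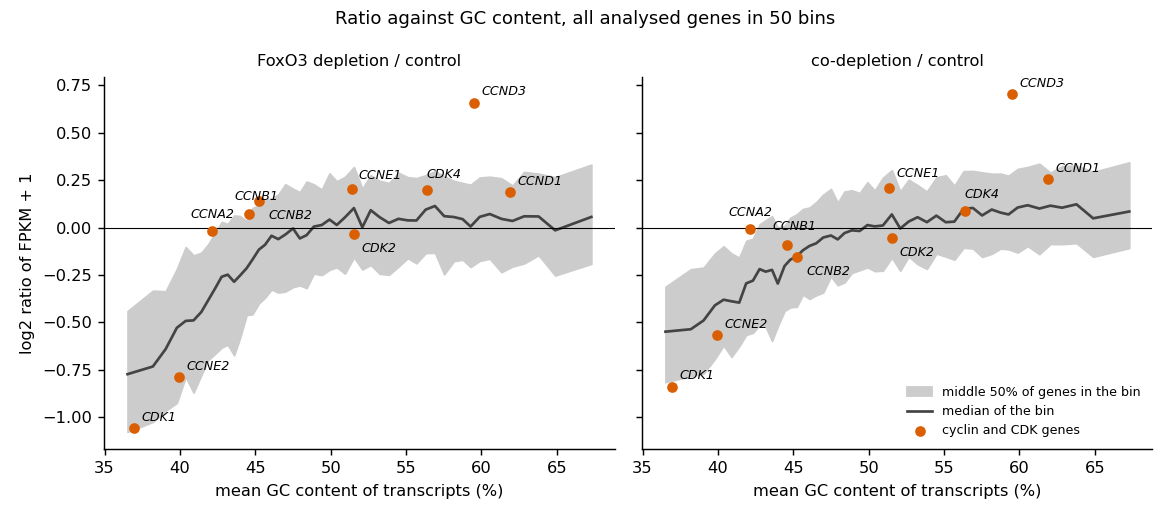
Log2 ratio of FPKM + 1 against the mean GC content of a gene's transcripts, with the median (line) and the middle 50% (grey) of all analysed genes in 50 bins and the 10 genes as labelled points. CDK1 and CCNE2 lie at the low end of GC content within the grey band or close to its lower edge, and CCND3 lies far above the band in both comparisons. CCNA2 lies just above the band in both, and CCNB1 and CCNB2 lie at its upper edge in the FoxO3 depletion.

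The direct comparison of the depleted libraries asks what differs when Geminin is depleted along with FoxO3. By size 0 of the 10 genes passed 1.5-fold, while 1.97% of all genes did, 1.35% higher and 0.617% lower. After GC adjustment 0 of the 10 passed as well, against 1.84% of all genes, 1.08% higher and 0.759% lower. CCNB2 was the lowest, at a ratio of 0.815 (0.741 to 0.896), and CCNB1 was at 0.894 (0.833 to 0.960). Their log2 ratios were -0.29 and -0.16, and -0.27 and -0.16 after GC adjustment. CDK1 was at 1.17 (1.06 to 1.28), with a log2 ratio of 0.22 that was 0.01 after adjustment. CCND1 was at 1.05 (1.02 to 1.07), and the counting intervals of CCND3, CCNE1, CCNE2, CCNA2, CDK2 and CDK4 included 1. The control library is shared by the 2 earlier comparisons, and the depleted libraries by this one and those.

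The groups that follow are read beside all analysed genes, of which 4.0% and 4.02% were higher and 16.7% and 12.3% lower after FoxO3 depletion and co-depletion, with medians of -0.07 and -0.06. After GC adjustment 5.84% and 4.62% of all genes were higher and 9.38% and 6.15% lower, and adjusted counts are read beside these shares. Among inhibitors of these kinases, of 8 INK4, CIP/KIP and related genes 6 reached the minimum level, and 1 of these was higher and 0 lower by 1.5-fold in each comparison with the control, with medians of -0.09 and 0.02. The one was CDKN1B, which encodes p27, at 38.3, 59.7 and 58.6 FPKM, with ratios of 1.56 (1.40 to 1.73) and 1.53 (1.38 to 1.70). It was thus higher in both libraries in which FOXO3, known as its activator, was low. This is 1 gene, and genes known to be activated by FoxO factors were not read as a set here. CDKN2C, an INK4 inhibitor of CDK4 and CDK6, was at 47.5, 37.3 and 42.0, CDKN1C at 9.78, 7.64 and 7.28, and the phosphatase gene CDKN3 at 88.3, 63.5 and 78.5. CDKN2A and CDKN2B, which MDA-MB-231 is known to have lost, were listed at 0 in all 3 libraries.

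CDK4 and CDK6 phosphorylate the RB family, which holds E2F factors in check. Of 13 genes of the RB family, E2F and DP, 3 were lower and 1 higher in each comparison, with medians of -0.18 and -0.30, where 16.7% and 12.3% of all genes were lower. The 3 lower genes were those of the RB family: RB1 at 56.5, 30.01 and 36.8 FPKM, RBL1 at 27.3, 14.6 and 14.8, and RBL2 at 14.6, 7.16 and 6.49. Their GC contents are 41.0% to 43.5%, bins of which the poorer had 35.3% of genes lower after FoxO3 depletion. Adjusted log2 ratios of RB1, RBL1 and RBL2 were -0.57, -0.58 and -0.45 after FoxO3 depletion, all short of 1.5-fold, and -0.33, -0.62 and -0.67 after co-depletion. RBL1 thus lay close to the threshold in both. The higher gene was E2F5, a repressor E2F, at 5.85, 10.1 and 10.4 FPKM, with adjusted log2 ratios of 1.21 and 1.13.

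Among 5 further cyclins and CDKs of the cell cycle, CDK6 was the 1 past 1.5-fold, downward in both comparisons. GC adjustment left it in place, from -1.02 to -1.03 and at -0.74 in both scales, and its transcripts have 52.1% GC. CCNF, a cyclin that serves as an F-box protein, was at 18.7, 26.0 and 26.0 FPKM. CCNA1, the germ-line cyclin A, was at 5.82, 4.15 and 5.46, and CCND2 at 2.65, 2.45 and 3.18, so both were scarce beside CCNA2 and CCND1.

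Of 7 CDK phosphatases, inhibitory kinases and CKS genes 1 was higher and 0 lower in each comparison, with medians of 0.25 and 0.25. The one was CDC25A, the phosphatase that activates CDK2 and CDK1, at 30.7, 64.8 and 55.9 FPKM, with ratios of 2.11 (1.87 to 2.39) and 1.82 (1.61 to 2.06). CDC25B was at 124.5, 153 and 148, CDC25C at 13.2, 13.2 and 9.95, and the CDK-binding subunit gene CKS1B at 230.5, 304.5 and 276. The WEE1 kinase, which restrains CDK1, is a gene of low GC content whose log2 ratio of 0.25 after FoxO3 depletion was 0.72 after adjustment. The 3 genes of the CDK-activating kinase, CDK7, CCNH and MNAT1, had 0 past 1.5-fold in either comparison, also after adjustment. Their medians were -0.12 and 0.13 as deposited and 0.38 and 0.51 after adjustment.

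The ligases that degrade cyclins and p27 had 1 higher and 3 lower of 23 after FoxO3 depletion and 0 higher and 2 lower after co-depletion, with medians of -0.06 and -0.11. The shares lower among all genes were again 16.7% and 12.3%. UBE2S, a ubiquitin-conjugating enzyme of the anaphase-promoting complex, was at 446, 753 and 646 FPKM. FBXO5, which encodes the APC/C inhibitor EMI1, was at 22.3, 11.9 and 15.1, and the APC/C subunits ANAPC4 at 22.3, 11.3 and 13.3 and CDC27 at 131, 82.5 and 87.8. After GC adjustment 0 of the 23 were lower after FoxO3 depletion, where 9.38% of all genes were, with FBXO5 at -0.10 and ANAPC4 at -0.37. SKP2, the F-box protein that targets p27, was at 34.3, 30.6 and 19.4 FPKM. It was lower in the co-depletion than in the FoxO3 depletion at a ratio of 0.633 (0.549 to 0.728), and its log2 ratio against the control was -0.79, or -0.74 after adjustment.

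Of 6 measured MuvB, B-MYB and FOXM1 genes 0 were higher and 2 lower after FoxO3 depletion and 0 and 1 (LIN9) after co-depletion, LIN9 at 9.53, 4.82 and 5.72 FPKM and LIN54 at 14.3, 8.88 and 10.3. Both are GC-poor, and 0 of the 6 passed 1.5-fold after adjustment, where 15.2% and 10.8% of all genes did. Transcriptional cyclins and CDKs had 1 higher and 3 lower of 13 after FoxO3 depletion and 1 and 2 after co-depletion. The lower ones included CDK19, a Mediator kinase, at 13.0, 6.37 and 6.13 and CCNT1, a subunit of P-TEFb, at 21.96, 13.5 and 13.3, with CCNT2, at 14.5, 6.98 and 10.4, among them after FoxO3 depletion alone. After GC adjustment 1 of the 13 was lower in each comparison, CDK19, at -0.62 and -0.71, and 1 and 2 were higher. Of all genes 9.38% and 6.15% were lower and 5.84% and 4.62% higher after adjustment. CCNT1 was then at -0.36 and -0.42 and CCNT2 at -0.45 after FoxO3 depletion. The higher gene was CDK8, the other Mediator kinase, after FoxO3 depletion, at 15.5, 23.9 and 22.3, and CCNK, the partner of CDK12, after co-depletion, at 52.7, 74.5 and 80.7. Of 17 other cyclins and CDK-like kinases 0 were higher and 4 lower after FoxO3 depletion and 1 and 5 after co-depletion, beside the same 16.7% and 12.3% lower of all genes, with CDK17 at 49.0, 23.7 and 28.3 and CCNG1 at 48.7, 26.8 and 24.5. CCNG2 was at 17.5, 12.0 and 10.1 FPKM and passed 1.5-fold after co-depletion alone, with ratios to the control of 0.683 (0.541 to 0.858) and 0.578 (0.457 to 0.728). After GC adjustment 0 of the 17 were lower in either comparison, beside 9.38% and 6.15% of all genes. Higher were then 2 after FoxO3 depletion, CDKL3 and CCNYL1 at 0.89 and 0.59, and 1 after co-depletion, CDKL3 at 1.08. CDKL3 was scarce, at 1.48, 1.85 and 2.69 FPKM. Its ratio after FoxO3 depletion was 1.25, with an interval of 0.705 to 2.22 that includes 1, and its log2 ratio before adjustment was 0.20. After co-depletion its ratio was 1.82 (1.10 to 3.04).

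Of 9 proliferation markers 0 were higher and 2 lower by 1.5-fold in each comparison, beside 16.7% and 12.3% lower of all genes, with medians of -0.08 and -0.13. The same 2 were lower after GC adjustment, beside 9.38% and 6.15% of all genes. The 2 were TOP2A, at 478, 175 and 213 FPKM, and MKI67, at 171, 109 and 103. PCNA was at 152, 106 and 104, and RRM2, a subunit of ribonucleotide reductase, was higher at 250.1, 350.1 and 311, within 1.5-fold. AURKA was at 127, 157 and 126 and PLK1 at 111, 137 and 123, both highest after FoxO3 depletion. MCM2 was at 83.5, 73.6 and 71.8, TYMS at 99.9, 94.4 and 91.3, and BIRC5 at 33.7, 32.5 and 31.1. CDK1 differs from TOP2A and MKI67 in that it was within 1.5-fold after adjustment, at -0.29 in each comparison. In bulk RNA, fewer cells in a phase and less RNA per cell cannot be told apart.

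**Figure D4:**
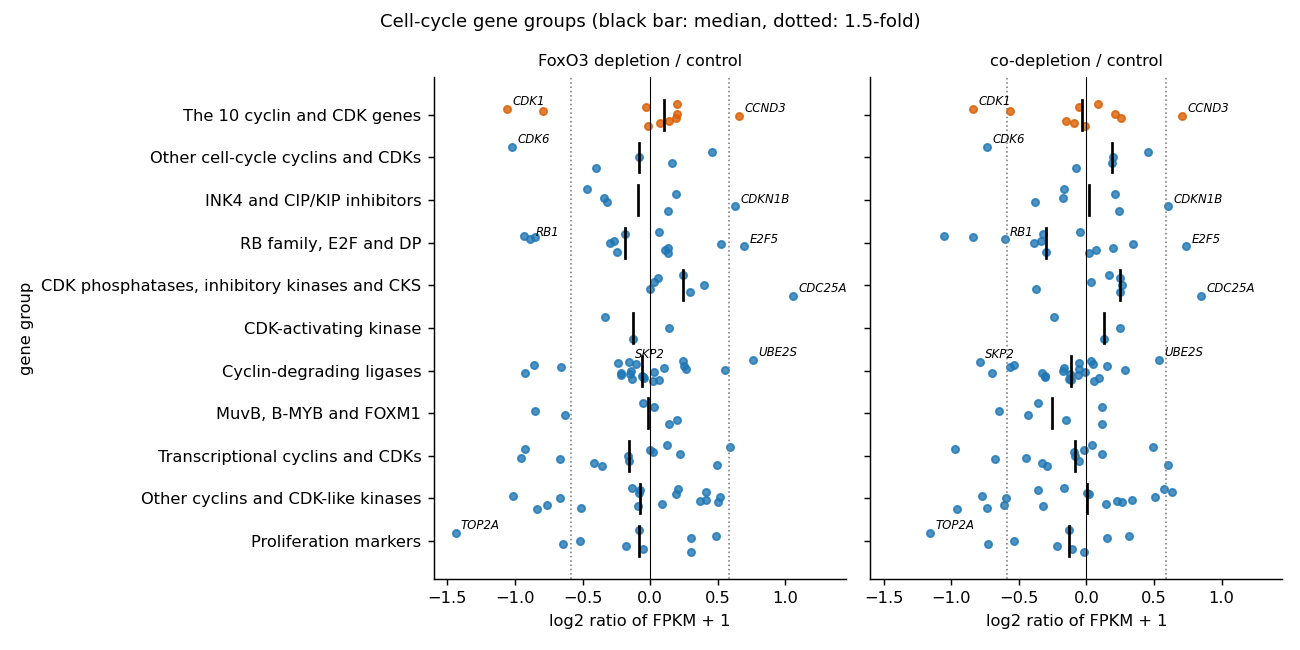
Log2 ratio of FPKM + 1 in both comparisons with the control for each measured gene of the 10 and of 10 further cell-cycle groups, with a black bar at each group's median and dotted lines at 1.5-fold. Group medians lie between -0.30 and 0.25, while single genes such as CDK1, CDK6, RB1 and TOP2A lie further to the left and CCND3, CDKN1B, E2F5 and CDC25A further to the right.

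Among 112 measured genes of the 10 and the groups above, the gene nearest to each of the 10 was sought by the Euclidean distance over the 2 log2 ratios against the control, which rest on 3 libraries. CDK17 was nearest to CDK1 at a distance of 0.08, CCNJ to CCNE2 at 0.06 and E2F5 to CCND3 at 0.04. Such likeness is common over 3 libraries, as 127, 225 and 92 of all analysed genes lay within 0.1 of CDK1, CCNE2 and CCND3. Around CCNA2, which differed least as deposited, 1004 did.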

How the data were processed

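RNA of 3 MDA-MB-231 cultures was sequenced, 1 library per group. The authors deposited FPKM per Ensembl gene. TopHat2 2.0.9 is the tool listed, with no role, in the submitters' processing notes. Strand setting, genome build, annotation, counter and FPKM tool were not given in the sources used here. Coordinates are printed only for RefSeq promoter sites. GENCODE 29 named 45341 of 48162 IDs and gave transcript lengths and GC content. The 12649 named genes with a mean of at least 1 FPKM were analysed. Reads behind the FPKM were recovered as the smallest whole numbers (within 3e-04, up to 60000) that fit the 3 libraries and a whole-base length. This succeeded for 12645 genes, and true reads can be a multiple, which makes an interval wider than needed. Ratios carry exact Clopper-Pearson 95% intervals on these reads, and level intervals are exact Poisson. Log2 ratios used FPKM + 1. Calls were by size, at 1.5-fold. GC adjustment subtracted the running median over 50 bins. The read recovery and the adjustment were tested on simulated data. The 10 genes, the gene lists and the alternatives were chosen with earlier results of these data known. Levels per longest transcript were added after seeing the data. Genes named from each list were up to 4 with the largest log2 ratios against the control, and others were named after their values were seen. Python 3.11.15, numpy 2.4.6, pandas 2.3.3 and scipy 1.17.1 were used.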

Additional observations from a re-analysis of the deposited data

How the results depend on the processing

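No paired analysis was possible because each group holds 1 library. Of the 30 log2 ratios of the 10 genes, none moved beyond its counting interval with a pseudocount of 0.1 or 0.5, 2 did with TPM scaling, 3 with median-ratio scaling and 14 with GC adjustment. Median-ratio scaling gave CCND1 0.26 and 0.31 and CCND3 0.73 and 0.76 after FoxO3 depletion and co-depletion, and TPM scaling gave CCND1 0.15 and 0.22. GC adjustment after FoxO3 depletion gave CCND1 0.15, CCNE2 -0.27, CCNA2 0.33, CCNB1 0.27 and CDK1 -0.29. After co-depletion it gave CCND1 0.14, CCND3 0.62, CCNE2 -0.16, CCNA2 0.28, CCNB1 0.10, CCNB2 -0.0041 and CDK1 -0.29, and between the depleted libraries CCND1 0.0059 and CDK1 0.012. The number of the 10 that were lower was 0 after GC adjustment in both comparisons with the control. At 2-fold 0 were higher in both, 1 was lower after FoxO3 depletion and 0 after co-depletion. With a pseudocount of 0.1 or 0.5 or with TPM scaling 2 were lower after co-depletion.

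Of all genes, 1187 and 778 were lower than the control after GC adjustment, against 2112 and 1550. The share of called genes that were lower was 80.7% and 75.3% as deposited, and 61.6% and 57.1% after adjustment. At 2-fold 85 were higher and 661 lower after FoxO3 depletion and 79 and 285 after co-depletion. Between the depleted libraries 171 were higher and 78 lower. These numbers were 451 and 207 with a pseudocount of 0.1, 312 and 130 with 0.5, 16 and 8 at 2-fold, 45 and 14 with a mean of at least 5 FPKM, 384 and 232 with no minimum, and 89 and 24 among protein-coding genes. The cause of these changes was not tested, beyond the larger or smaller set of genes that the minimum and the gene class leave.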
